A study of Mus musculus with 10 samples.

Results

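MHC class I antigen presentation and the response to interferon were followed through 36 genes in the lens epithelium of wild-type mice and of transgenic mice in which TGF-β1 causes anterior subcapsular cataract. The genes were taken by name, with earlier results of these data known, and are 36 of the 50763 genes counted. They comprise 4 chains of class I molecules, 6 genes of peptide supply and loading, 5 transcriptional regulators, 16 antiviral effectors and sensors, and 5 interferon-inducible GTPases.

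Lens epithelium was explanted from mice aged 3 weeks on an FVB/N background and sequenced as pools, each pool giving 1 library. WT pools (n = 3) and OVE853 pools (n = 3) each held tissue from up to 9 mice, and OVE918 pools (n = 4) from up to 7. OVE853 and OVE918 are independent transgenic lines that secrete a self-activating human TGF-β1 from a modified alpha-crystallin promoter, which acts in the lens, and the tissue of both lines came from mice with an anterior plaque under the capsule. The WT mice carried no transgene, and no group received a treatment. In all, 24073311 to 31908525 read pairs were assigned to genes per library, with group medians of 26368077 in WT, 27440481 in OVE853 and 26962654 in OVE918.

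Class I molecules show peptides from inside a cell to CD8 T cells. A heavy chain (H2-K1, H2-D1 and the non-classical H2-T23, Qa-1) pairs with the light chain B2m, peptides are cut by the immunoproteasome (Psmb8, Psmb9, Psmb10), carried into the endoplasmic reticulum by Tap1 and Tap2, and fitted to the heavy chain with the help of Tapbp (tapasin). Type I interferons signal to Stat2 and Irf9, parts of a complex that binds the interferon-stimulated response element (ISRE), and interferon-γ acts through the γ-activated sequence (GAS). Irf1 and Nlrc5 act on class I promoters themselves. The lens is an avascular tissue with immune privilege.

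Regulatory sequence of the kind through which these genes are known to respond is shown first, because the members that moved include genes with and without it. In the RefSeq promoter set (GRCm38.p6), 32 of the 36 members had a window of 250 bases before the start of transcription, and each window was searched on both strands for 4 motifs. The ISRE core, GAAA and GAAA separated by any 2 bases, was present in 13 of these 32 genes (40.6%), against 3.46% of the 27025 genes with a window. The GAS core TTCNNNGAA was found in 7 members (21.9%, against 8.13% of genes), the shorter IRF-binding core GAANNGAAA in 6 (18.8%, against 7.3%), and the NF-κB palindrome, the first run of capitals in the H2-K1 stretch below, in H2-K1 and H2-D1 alone among the members (0.0333% of genes). A match is a description of these letters in the reference strain, C57BL/6J, and not a site shown to be bound.

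The stretches below were placed on GRCm39 by a unique exact match and are written 5′ to 3′ along the gene, with the motif matches in capitals. Distances are to the RefSeq start of transcription. The stretches of H2-D1, B2m and Gbp3 and the second of Gbp7 lie inside the gene as GENCODE M39 draws it. They were chosen for the class I chains and for members that rose (Gbp7, Gbp3) or fell (Ifit3) against WT.
H2-K1, chr17:34219322-34219501, minus strand, the 180 bases before the start, with the NF-κB palindrome and then the IRF core: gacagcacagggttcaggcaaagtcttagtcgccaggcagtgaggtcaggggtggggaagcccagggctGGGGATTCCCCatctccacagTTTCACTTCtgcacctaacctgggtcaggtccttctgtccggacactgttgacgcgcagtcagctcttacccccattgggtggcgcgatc
H2-D1, chr17:35481899-35481928, plus strand, the same pair of motifs: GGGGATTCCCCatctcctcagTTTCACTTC
B2m, chr2:121978019-121978048, plus strand, an ISRE core: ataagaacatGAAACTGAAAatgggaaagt
Gbp7, chr3:142235917-142236043, plus strand, a pair of GAS cores: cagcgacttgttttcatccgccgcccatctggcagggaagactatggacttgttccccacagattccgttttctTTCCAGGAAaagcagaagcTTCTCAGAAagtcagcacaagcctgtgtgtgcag
Gbp7, chr3:142236044-142236073, plus strand, an ISRE core that overlaps an IRF core: TTTCAGTTTCAGTTCtccatccccacaact
Gbp3, chr3:142265753-142265782, plus strand, overlapping ISRE cores: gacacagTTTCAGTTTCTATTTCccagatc
Ifit3, chr19:34560749-34560898, plus strand, separate ISRE cores: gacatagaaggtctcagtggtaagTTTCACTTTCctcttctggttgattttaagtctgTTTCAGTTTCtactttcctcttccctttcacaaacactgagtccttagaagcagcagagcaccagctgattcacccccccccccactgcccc
H2-K1 and H2-D1 carried the palindrome and the IRF core at the same spacing, from 111 to 82 bases before the start in H2-K1 and from 171 to 142 in H2-D1. Ifi35 and Tapbp had windows with none of the 4 motifs, and Nlrc5 and Usp18 had no window in the set.

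On a per-length scale (FPKM, with library sizes scaled by edgeR's TMM factors), H2-D1, Tapbp, H2-K1 and B2m were the most abundant members in WT epithelium. H2-D1 stood at 40.3 ± 7.96 FPKM (SD, n = 3), Tapbp at 38.4 ± 0.081, H2-K1 at 35.4 ± 4.75 and B2m at 31.7 ± 7.72, and the ranges of neighbours in this order overlapped. Ifitm3, a membrane protein that blocks virus entry, followed at 20.3 ± 5.5 FPKM, apart from B2m. Ifi35 (9.43 ± 1.66) and Irf1 (7.11 ± 0.747) came next, each apart from the gene above it. The other 29 members were below 6 FPKM, and from Psmb10 downwards only Trim25 stood apart from the gene above it. The peptide transporters were far below the chains they serve, with Tap2 at 2.07 ± 0.659 FPKM and Tap1 at 1.38 ± 0.263. Classic indicators of an interferon response were near the bottom, with Isg15 at 1.74 ± 0.588, Ifit1 at 0.204 ± 0.116 and Rsad2 (viperin) at 0.0383 ± 0.0214 FPKM. The non-classical chain H2-T23 was far below the other 3 chains, at 2.41 ± 0.879 FPKM. With FPKM taken from plain library totals, 16 members had 2 or more in at least 5 of the 10 libraries, the minimum for the main test (17 on the TMM-scaled FPKM printed here, which adds Tap2), and 35 passed the lower minimum of edgeR's filterByExpr, with Rsad2 the exception.

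**Figure D1:**
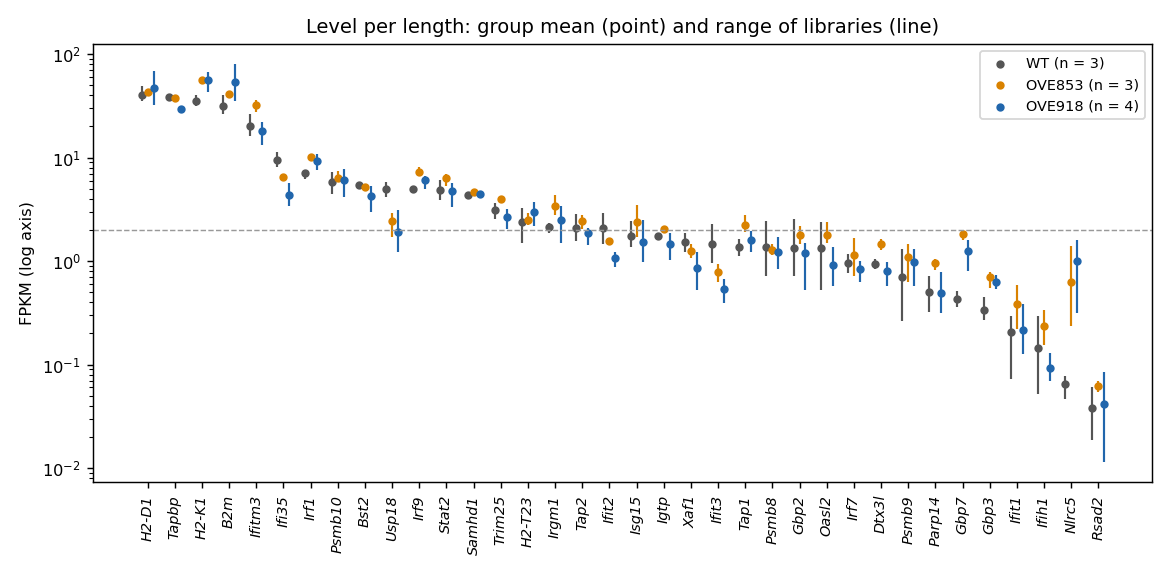
Level per length of the 36 members in the order of their WT mean, as TMM-scaled FPKM on a log axis. Points are group means and vertical lines the range of libraries in WT (n = 3), OVE853 (n = 3) and OVE918 (n = 4), and the dashed line marks 2 FPKM. H2-D1, H2-K1, B2m and Tapbp lie between 29.2 and 56.0 FPKM in every group mean, whereas 20 of the 36 genes did not reach the minimum of the main test.

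Interferon genes were at or near 0. Of 21, among them 13 of the Ifna family with Ifnb1 and Ifng, 17 had no count in any library, where a count of 0 allows up to 3, and the highest value of any was 4 counts. The receptor and signalling genes were expressed. Of 19 such genes, 14 passed the FPKM minimum. Among those called, Tyk2, a kinase of the type I interferon receptor, rose in both lines, by a log2 fold change of 0.43 ± 0.11 (SE, FDR = 0.023) in OVE853 and 0.33 ± 0.10 (FDR = 0.044) in OVE918. Jak2, a kinase of the interferon-γ receptor, fell in both, with -0.46 ± 0.10 (FDR = 0.014) and -0.62 ± 0.10 (FDR = 0.0011). It was at 24.7 to 27.3 CPM (counts scaled to library size with TMM factors, comparable between libraries but not between genes) in WT, 18.4 to 20.4 in OVE853 and 15.2 to 18.7 in OVE918, so that neither line overlapped WT. Ptpn2, a phosphatase that restrains this signalling, rose in OVE918 (0.34 ± 0.08, FDR = 0.013).

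The members moved in both directions. By edgeR's quasi-likelihood test at a Benjamini-Hochberg FDR of 0.05, 4 of the 16 members tested were called in OVE853 against WT, with H2-K1, Irf1 and Irf9 higher and Usp18 lower. Of all 11097 genes tested, 15.8% were called in that comparison, 8.1% higher and 7.69% lower. In OVE918 against WT, 4 of 16 were called, with H2-K1 higher and Tapbp, Ifi35 and Usp18 lower (2 higher and 3 lower with upper-quartile factors), where 19% of all genes were called, 8% higher and 11% lower. With a change of at least 2-fold required as well, Usp18 alone remained in OVE853 (4.42% of all genes, 1.91% lower) and Ifi35 and Usp18 in OVE918 (5.6%, 3.02% lower). The median log2 fold change of the 16 members was 0.25 in OVE853 and 0.04 in OVE918, beside medians of -0.01 and 0.01 over all genes. Both comparisons share the WT libraries.

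The lower minimum of filterByExpr, under which 18058 genes were tested, brought in 19 further members. Of 35 members, 6 were then called in OVE853, all higher (Nlrc5, Gbp3 and Gbp7 beside H2-K1, Irf1 and Irf9), against 13.6% of all genes (6.54% of all genes were higher). In OVE918, 9 were called, against 16.9% of all genes (6.85% higher and 10% lower): H2-K1, Nlrc5, Gbp3 and Gbp7 were higher and Tapbp, Ifit2, Ifit3, Ifi35 and Usp18 lower. Usp18 missed the threshold in OVE853 under this minimum, at a log2 fold change of -1.05. DESeq2 on the same genes called 10 members in OVE853 (21.6% of all genes), with Tap1, Ifitm3 and Dtx3l higher and Usp18 lower besides, and 12 in OVE918 (22.7%), with B2m and Irf1 higher and Xaf1 lower besides. Values below for members under the FPKM minimum come from the edgeR fit after filterByExpr.

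**Figure D2:**
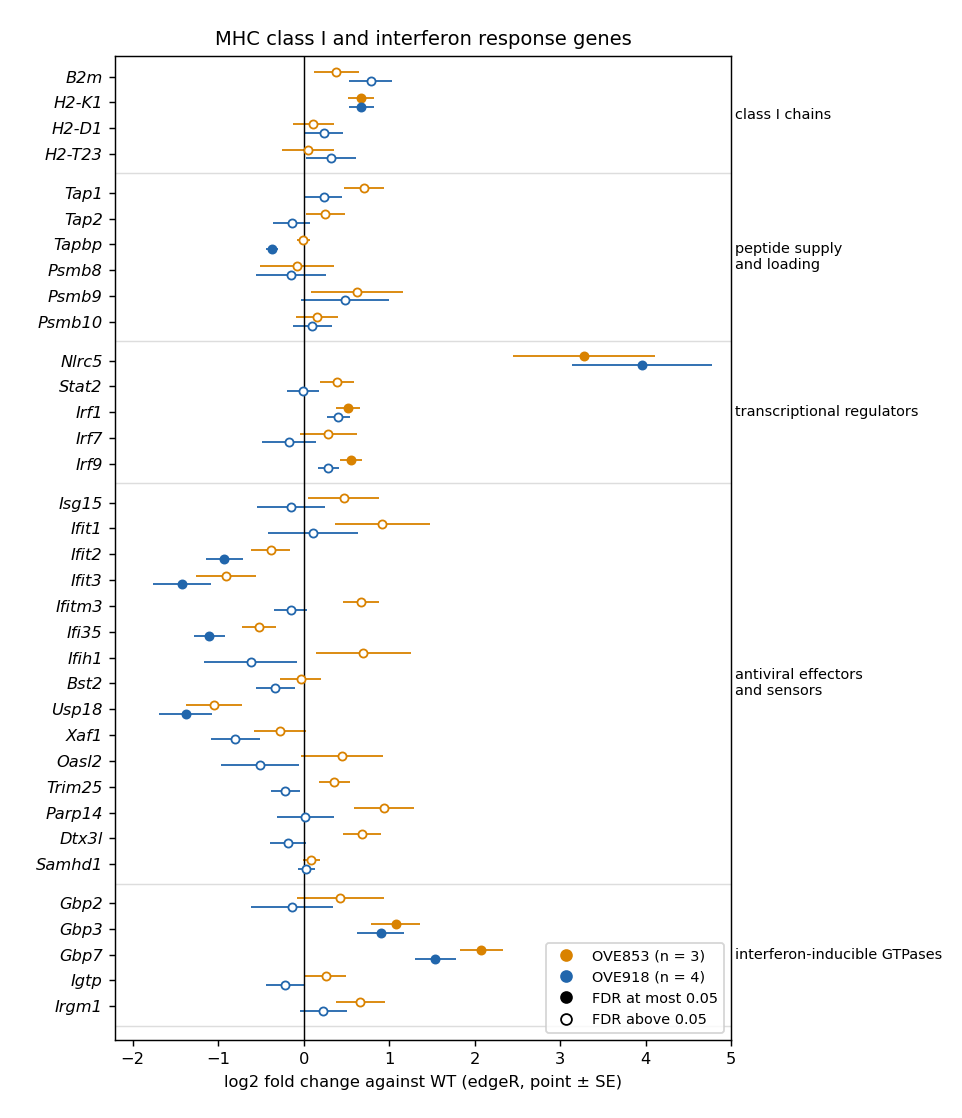
Log2 fold change of the 35 members that passed filterByExpr in OVE853 (n = 3) and OVE918 (n = 4) against WT (n = 3), by role, with the standard error as a bar. Filled points have an FDR of at most 0.05 in this fit. Of the 35 OVE853 values 27 are above 0 (49.6% of all genes), and of the 35 OVE918 values 16 are (51.3% of all genes). Leaving out each library in turn gave 25 to 29 above 0 in OVE853 and 13 to 24 in OVE918. The 24 came without WT replicate 3. Both sets are taken against the same WT libraries.

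Among the class I chains, H2-K1 (chr17:34214987-34219321, GRCm39) rose in both lines. It was at 62.2, 56.4 and 73.3 CPM in WT, at 98.8, 104 and 101 in OVE853 and at 121, 78.6, 90.7 and 112 in OVE918. No transgenic library overlapped WT. The log2 fold change was 0.66 ± 0.16 (FDR = 0.018) in OVE853 and 0.65 ± 0.15 (FDR = 0.01) in OVE918, or 1.58-fold and 1.57-fold. The gene that shares its promoter motifs, H2-D1, did not pass the test in either line. Its WT libraries were at 76.6, 74.8 and 105 CPM, those of OVE853 at 91.4, 94.5 and 89.5 and those of OVE918 at 145, 68.5, 78.7 and 106. The log2 fold changes of H2-D1 were 0.10 ± 0.24 (FDR = 0.78) and 0.22 ± 0.23 (FDR = 0.55). B2m was at 30.2, 28.9 and 44.0 CPM in WT, at 43.9, 42.8 and 46.8 in OVE853 and at 87.4, 37.9, 47.1 and 60.9 in OVE918, and WT replicate 3 overlapped both lines. Its log2 fold changes were 0.37 ± 0.27 (FDR = 0.35) and 0.76 ± 0.26 (FDR = 0.063). H2-T23 was between 2.19 and 5.49 CPM in all libraries, and its log2 fold change was 0.04 ± 0.30 (FDR = 0.94) in OVE853 and 0.29 ± 0.28 (FDR = 0.51) in OVE918. Class I genes are alike in sequence and FVB/N carries other class I alleles than the reference, so reads may be split or lost between H2-K1, H2-D1 and the H2-Q genes, and their levels are uncertain to that extent.

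Within WT and within OVE918, B2m and H2-D1 were highest in the libraries in which class II genes were highest. Cd74, the class II invariant chain of professional antigen-presenting cells, was at 3.04, 5.39 and 16.0 CPM in WT, at 9.49, 3.85 and 8.20 in OVE853 and at 27.1, 3.84, 8.58 and 16.9 in OVE918. WT replicate 3 and OVE918 replicates 1 and 4 led their groups for Cd74, for H2-Aa and H2-Ab1, and for B2m, H2-D1 and H2-K1. In OVE853 the order differed, with Cd74 highest in replicate 1, H2-D1 and H2-K1 in replicate 2 and B2m in replicate 3. None of the 7 class II genes was called under the FPKM minimum, where 3 were tested. Under filterByExpr Ciita, the class II counterpart of Nlrc5, was called in OVE918, at 0 to 3 counts in the WT libraries and 3 to 16 in those of OVE918. The summed level of the 15 macrophage and leukocyte markers was 26.9 to 64.5 CPM in WT, 58.2 to 92.1 in OVE853 and 39.7 to 107 in OVE918, and the 4 of them tested were all above 0 in both lines, with medians of 1.24 and 1.18 and an unadjusted p under 0.05 for each. Of these, C1qa, a complement gene of macrophages, was called higher in OVE918 (log2 fold change 1.35 ± 0.41, FDR = 0.045) and none was called in OVE853 (FDR = 0.059 for C1qa). Under filterByExpr 13 of the 15 were above 0 in each line, with Laptm5 called higher in OVE853, Cd68 and C1qa higher in OVE918 and Mrc1 lower in both. The part of leukocytes in the class I levels was not tested, and in whole epithelium more cells of a type and more RNA per cell cannot be told apart.

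**Figure D3:**
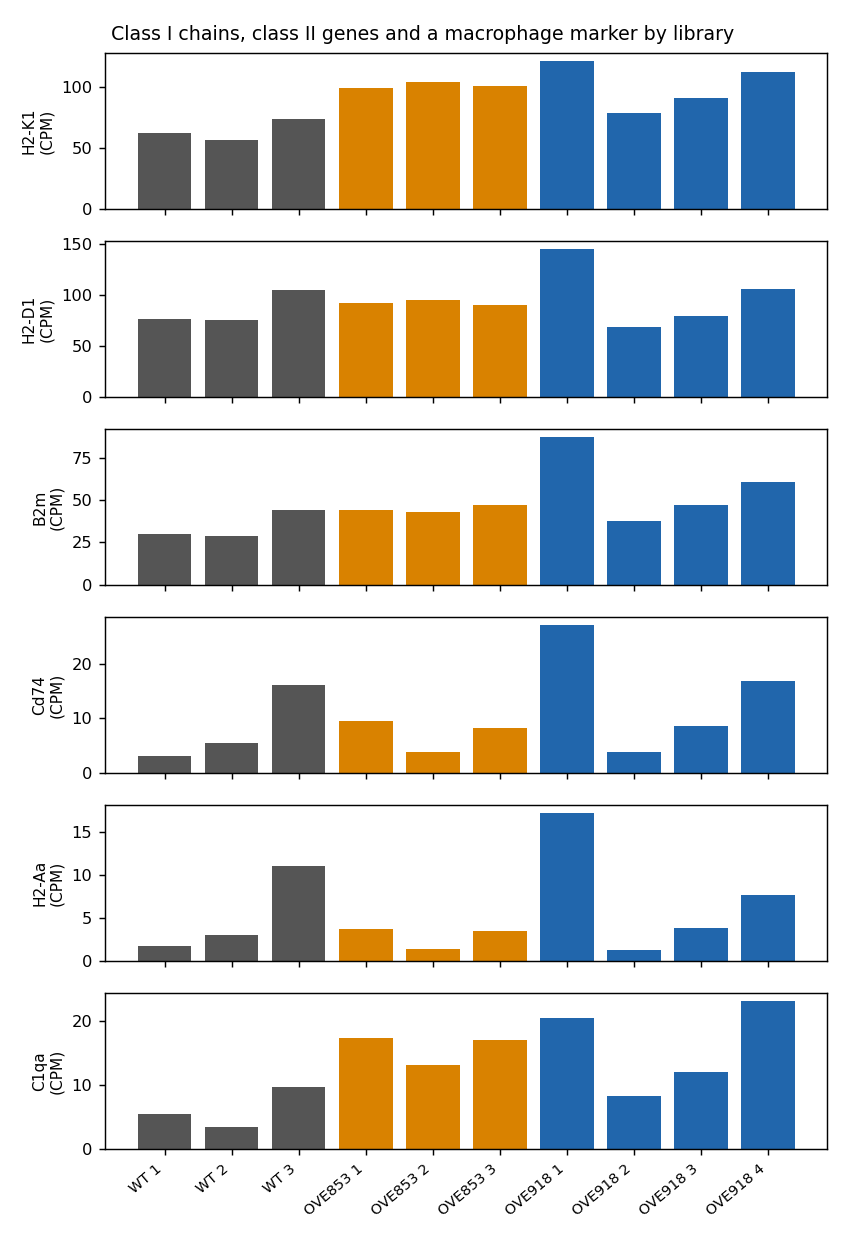
H2-K1, H2-D1, B2m, the class II genes Cd74 and H2-Aa, and the macrophage gene C1qa in each of the 10 libraries, as CPM scaled by TMM factors, with 1 bar per library from 0. Within WT and within OVE918, the libraries with the tallest Cd74 bars (16.0 in WT replicate 3, 27.1 and 16.9 in OVE918 replicates 1 and 4) also have the tallest H2-D1 and B2m bars.

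In peptide supply and loading, Tapbp (chr17:34134873-34148267, GRCm39) was the member that separated the lines. It was at 115, 114 and 114 CPM in WT and at 116, 108 and 116 in OVE853, and at 89.6, 83.7, 84.2 and 90.6 in OVE918. All 4 OVE918 libraries lay below the other 6. The log2 fold change was -0.39 ± 0.07 (FDR = 0.0027) in OVE918 against WT and -0.01 ± 0.07 (FDR = 0.92) in OVE853 against WT, and -0.38 ± 0.07 (FDR = 0.038) in OVE918 against OVE853. The call between the lines was lost in 11 of 20 refits, with values from -0.41 to -0.34, and the call against WT in none. Tap1 was at 3.49, 4.27 and 5.12 CPM in WT, at 5.98, 6.26 and 8.65 in OVE853 and at 6.04, 3.80, 5.13 and 4.98 in OVE918. The OVE853 libraries lay above WT without passing the test (log2 fold change 0.71 ± 0.23, FDR = 0.064), and those of OVE918 overlapped WT (0.24 ± 0.22, FDR = 0.49). Tap2 and the immunoproteasome genes Psmb8, Psmb9 and Psmb10 overlapped between groups in every comparison, with log2 fold changes against WT from -0.15 to 0.62.

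Of 25 further class I genes and assembly factors, 13 passed the FPKM minimum. In OVE853 5 rose and 2 fell, and in OVE918 4 rose and 3 fell (15.8% and 19% of all genes were called). Calr, the calreticulin chaperone that works beside tapasin, rose by a log2 fold change of 0.74 ± 0.11 (FDR = 0.0019) in OVE853 and 1.05 ± 0.11 (FDR = 8.4e-05) in OVE918. The class I-like genes Hfe, which bears on iron uptake, and Fcgrt, the neonatal Fc receptor, fell in both lines. Hfe changed by -1.03 ± 0.17 (FDR = 0.0033) and -0.84 ± 0.16 (FDR = 0.0042), and Fcgrt by -0.54 ± 0.10 (FDR = 0.0062) and -1.03 ± 0.09 (FDR = 3.6e-05). Under filterByExpr H2-Q2 also rose in OVE853, from 0.0894 to 0.21 CPM in WT to 0.363 to 0.519.

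Nlrc5 (chr8:95160984-95253900, GRCm39), the transactivator of class I genes, had the largest fold change of the 35 members tested and the largest standard error. It was at 0.581, 0.539 and 0.351 CPM in WT, at 1.78, 10.6 and 1.94 in OVE853 and at 12.2, 2.38, 8.29 and 7.38 in OVE918. Every transgenic library lay above WT, yet the values within each line fell into a low set (OVE853 replicates 1 and 3 and OVE918 replicate 2) and a high set of the other 4. The log2 fold change was 3.28 ± 0.83 (FDR = 0.03) in OVE853 and 3.96 ± 0.82 (FDR = 0.0089) in OVE918. Leaving out OVE853 replicate 2 gave a log2 fold change of 1.94 in OVE853, so that library carried much of the value, and the call was also lost without any 1 of the WT libraries (FDR = 0.053 to 0.13). The OVE918 call was lost without WT replicate 3 (log2 fold change 3.74, FDR = 0.055). The same 4 libraries were the highest of their lines for the lens fiber gene Bfsp1 (filensin), with 932 CPM in OVE853 replicate 2 against 254 and 225, and 1389, 792 and 1328 in OVE918 replicates 1, 3 and 4 against 346. In WT Bfsp1 was at 529 to 623 CPM with Nlrc5 at its lowest. The sum of the 6 fiber markers was 14828 to 22106 CPM in WT, 9176 to 15745 in OVE853 and 13739 to 28261 in OVE918. The part of fiber cells in the Nlrc5 value was not tested. In OVE853 replicate 2, where Nlrc5 was high, H2-K1 stood at 104 CPM against 98.8 and 101 in the other OVE853 libraries. H2-D1 was there at 94.5 against 91.4 and 89.5, and B2m at 42.8 against 43.9 and 46.8. In OVE918, replicate 1 was highest for Nlrc5 and for H2-K1 (121 CPM), H2-D1 (145) and B2m (87.4). Replicate 2 was lowest for Nlrc5 and for H2-K1 (78.6), H2-D1 (68.5) and B2m (37.9). Between OVE918 replicates 3 and 4, Nlrc5 was higher in replicate 3 and these chains were higher in replicate 4. A link between Nlrc5 and the chains was not tested.

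**Figure D4:**
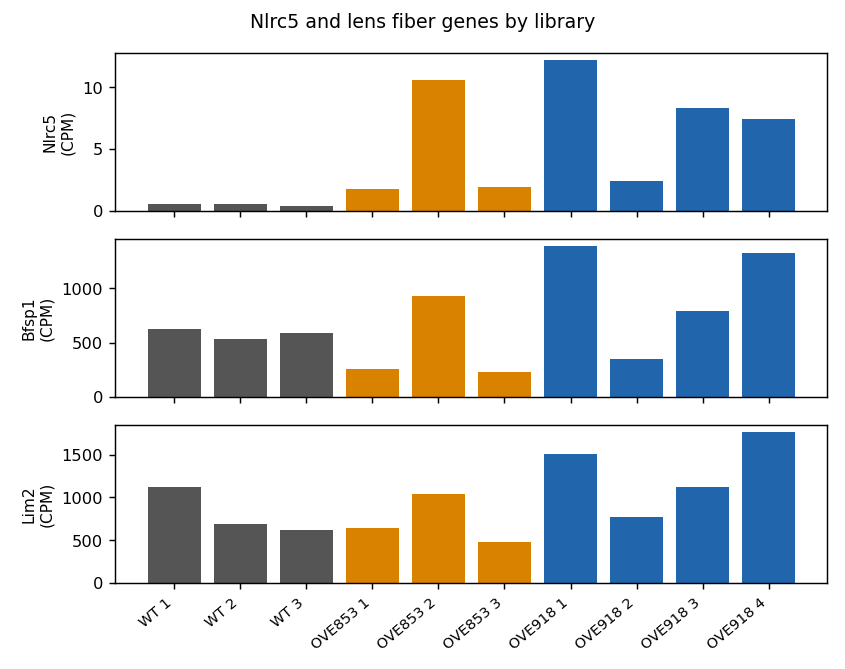
Nlrc5 and the lens fiber genes Bfsp1 and Lim2 in each of the 10 libraries, as CPM scaled by TMM factors, with 1 bar per library from 0. Within OVE853 and within OVE918, the libraries with high Nlrc5 (7.38 to 12.2 CPM) are those with high Bfsp1 (792 to 1389 CPM), whereas WT has Bfsp1 at 529 to 623 CPM and Nlrc5 at or below 0.581 CPM.

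Among the other regulators, Irf1 and Irf9 rose in OVE853. Irf1, an early target of interferon-γ, was at 16.1, 13.3 and 16.2 CPM in WT, at 21.1, 21.8 and 22.2 in OVE853 and at 18.7, 23.2, 16.1 and 21.3 in OVE918. The OVE853 libraries were all above WT (log2 fold change 0.51 ± 0.14, FDR = 0.03), and OVE918 replicate 3 lay within the WT range (0.38 ± 0.13, FDR = 0.062). Irf9, the DNA-binding part of the ISRE-binding complex, was at 13.7, 13.1 and 14.9 CPM in WT, at 22.5, 18.6 and 19.8 in OVE853 and at 18.4, 16.2, 18.7 and 13.7 in OVE918. Its log2 fold change was 0.55 ± 0.13 (FDR = 0.02) in OVE853, with no overlap, and 0.27 ± 0.13 (FDR = 0.16) in OVE918, where replicate 4 lay within WT. Its partner Stat2 overlapped WT in both lines (0.38 ± 0.21 and -0.03 ± 0.19, FDR = 0.22 and 0.92), as did Irf7, the factor that amplifies type I interferon (0.29 ± 0.34 and -0.17 ± 0.32, FDR = 0.58 and 0.76). The OVE853 calls were narrow. H2-K1, Irf1 and Irf9 kept their direction in every refit, and without WT replicate 2, OVE853 replicate 1 or OVE853 replicate 3 none of them passed.

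Among the GTPases, some guanylate-binding proteins rose. Gbp7 (chr3:142236044-142255910, GRCm39), a GTPase of defence against intracellular pathogens, was at 2.41, 2.89 and 2.03 CPM in WT, at 11.2, 9.04 and 10.6 in OVE853 and at 6.90, 7.64, 8.99 and 4.57 in OVE918. The groups did not overlap, and OVE853 was also above OVE918 library by library. The log2 fold change was 2.08 ± 0.25 (FDR = 0.0006) in OVE853 and 1.54 ± 0.24 (FDR = 0.0014) in OVE918, and it passed the test in all 16 refits of each line. The difference between the lines, -0.54 ± 0.22, did not pass (FDR = 0.24). Its neighbour Gbp3 was at 1.34, 0.808 and 0.912 CPM in WT, at 2.36, 1.67 and 2.38 in OVE853 and at 1.97, 1.71, 2.19 and 1.61 in OVE918. All transgenic libraries were above WT. Its log2 fold change was 1.08 ± 0.29 (FDR = 0.034) in OVE853 and 0.90 ± 0.27 (FDR = 0.047) in OVE918. Gbp2, from the same cluster on chromosome 3 and also with an ISRE core, overlapped between all groups (0.43 ± 0.51 and -0.14 ± 0.48, FDR = 0.58 and 0.87), with WT replicate 3 at 6.45 CPM and the other WT libraries at 1.83 and 1.85. The genes of this cluster are alike in sequence, so reads may be shared among them. Igtp and Irgm1, GTPases of another family, did not pass in either line (log2 fold changes of -0.22 to 0.65).

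Of the antiviral effectors and sensors, those called against WT by edgeR with all libraries, TMM factors and no block were lower. Usp18 (chr6:121222848-121247877, GRCm39), the protease that removes Isg15 from proteins and restrains type I signalling, was at 7.33, 10.2 and 9.26 CPM in WT, at 5.2, 4.67 and 3.03 in OVE853 and at 3.04, 2.76, 5.54 and 2.17 in OVE918. All transgenic libraries were below WT. The log2 fold change was -1.06 ± 0.32 (FDR = 0.047) in OVE853 and -1.40 ± 0.30 (FDR = 0.0078) in OVE918. The OVE853 call was lost in 10 of 19 refits, and the OVE918 call in none. Ifi35 (chr11:101339221-101352693, GRCm39), an interferon-induced leucine zipper protein, was at 12.1, 11.1 and 15.4 CPM in WT, at 9.03, 8.15 and 9.50 in OVE853 and at 5.87, 4.66, 5.31 and 7.70 in OVE918. The 3 groups stood in that order without overlap. Against WT the log2 fold change was -0.53 ± 0.19 (FDR = 0.081) in OVE853 and -1.13 ± 0.18 (FDR = 0.0013) in OVE918.

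Of the RNA-binding Ifit genes, Ifit2 and Ifit3 fell in OVE918. Ifit3 was at 2.46, 2.00 and 4.77 CPM in WT, at 1.63, 1.30 and 1.94 in OVE853 and at 1.41, 0.819, 1.30 and 0.969 in OVE918. No transgenic library reached the WT range. Its log2 fold change was -0.91 ± 0.36 (FDR = 0.11) in OVE853 and -1.42 ± 0.33 (FDR = 0.015) in OVE918. Ifit2 was at 6.71, 8.39 and 13.4 CPM in WT, at 7.64, 6.60 and 7.39 in OVE853 and at 5.61, 5.03, 5.02 and 4.01 in OVE918. All OVE918 libraries lay below WT, OVE853 replicate 2 lay just below it and the other OVE853 libraries within it, and the log2 fold changes were -0.39 ± 0.23 (FDR = 0.27) and -0.93 ± 0.22 (FDR = 0.015). WT replicate 3 was the highest library for both, and without it the log2 fold changes in OVE918 were -0.98 for Ifit3, which then missed the threshold, and -0.62 for Ifit2, which did not. Ifit1 overlapped between all groups, at 0.539 to 2.17 CPM in WT (log2 fold changes of 0.92 ± 0.56 and 0.11 ± 0.53). Ifit3 shares sequence with Ifit3b, and Ifit3b fell as well (-1.67 ± 0.49, FDR = 0.048, and -2.22 ± 0.46, FDR = 0.0078).

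**Figure D5:**
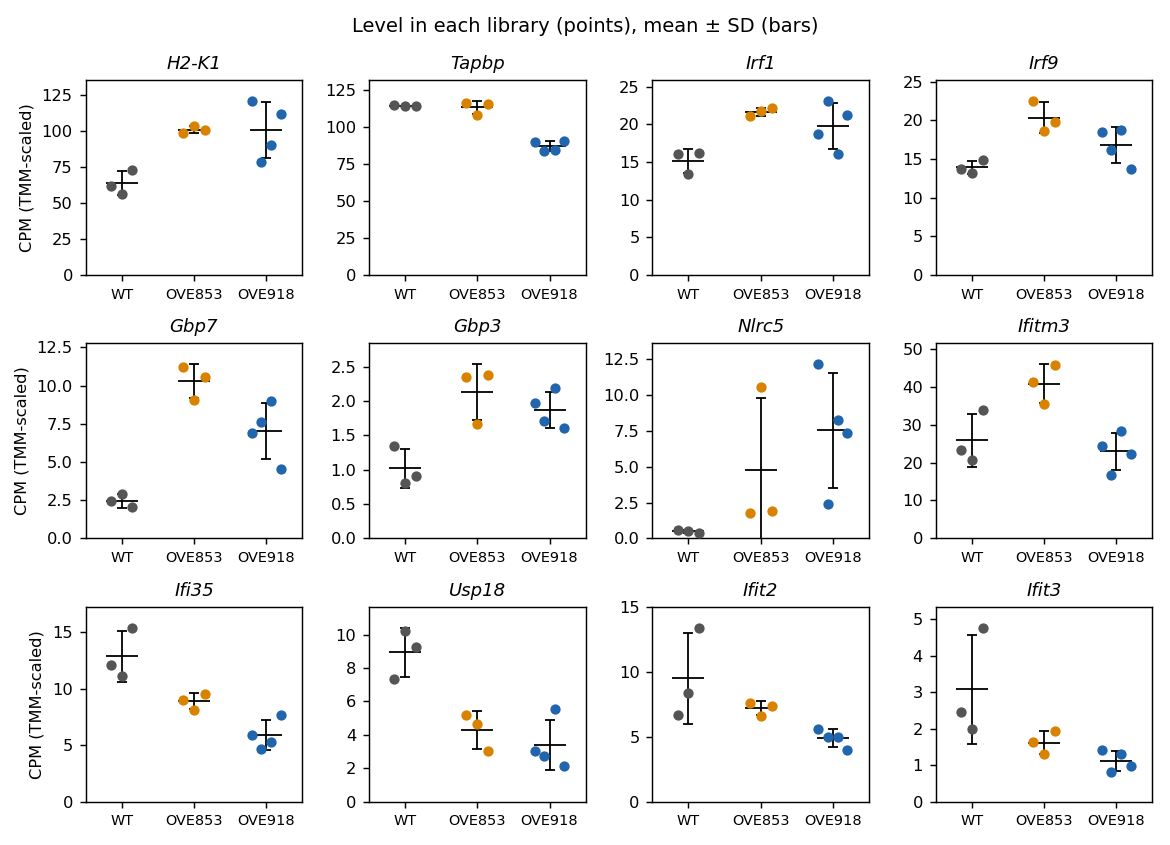
CPM scaled by TMM factors in each library for 12 members, with points for libraries and bars for the mean ± SD in WT (n = 3), OVE853 (n = 3) and OVE918 (n = 4). H2-K1, Gbp7, Gbp3 and Nlrc5 are above WT in every transgenic library and Usp18, Ifi35 and Ifit3 are below, and Tapbp is lower in OVE918 alone. Nlrc5 ranges from 1.78 to 10.6 CPM in OVE853 and from 2.38 to 12.2 in OVE918. Ifitm3 was not called by edgeR with all libraries, TMM factors and no block and is shown for the difference between the lines, and the SD bar of Nlrc5 in OVE853 runs below 0, where the axis ends.

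The remaining effectors were not called against WT by edgeR with all libraries, TMM factors and no block. Under filterByExpr, DESeq2 called Ifitm3 and Dtx3l higher in OVE853 and Xaf1 lower in OVE918. A replicate block called Ifitm3 and Parp14 higher in OVE853, as did edgeR without WT replicate 3. Ifitm3 was also called higher there with upper-quartile factors and without OVE918 replicate 2, and Dtx3l without OVE918 replicate 4. Xaf1 was also called lower in OVE918 without OVE918 replicate 3. In OVE853 Ifitm3 was at 41.3, 35.4 and 45.7 CPM against 23.2, 20.6 and 33.9 in WT and 24.5, 16.8, 28.3 and 22.1 in OVE918. OVE853 stood above both other groups without overlap, at 0.65 ± 0.21 against WT (FDR = 0.061), and OVE918 overlapped WT (-0.18 ± 0.20, FDR = 0.58). Trim25, Parp14 and Dtx3l had the same form, with OVE853 above WT without overlap (log2 fold changes of 0.35, 0.94 and 0.68, FDR = 0.18, 0.097 and 0.068) and OVE918 overlapping WT. Isg15, Ifih1 (MDA5), Bst2 (tetherin), Xaf1, Oasl2 and Samhd1 overlapped between each line and WT, with log2 fold changes from -0.80 to 0.70. Rsad2 had too few counts to test, with at most 8 in a library.

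The lines were then set against each other. Of 35 members, 30 had a log2 fold change below 0 in OVE918 against OVE853, with a median of -0.44, where 52.2% of all genes were below 0 and the median was -0.02. All 15 antiviral effectors and sensors tested were below 0 (median -0.58), as were all 6 genes of peptide supply and loading (median -0.25) and all 5 GTPases (median -0.47), whereas the 4 class I chains were above 0 (median 0.20). Of the chains, H2-K1 was at 0.005 (-0.008 under the FPKM minimum), and 0 had an unadjusted p under 0.05 by edgeR. Without OVE918 replicate 1 the chains were 2 above and 2 below 0, with a median of 0.03. Leaving out each library in turn gave 27 to 32 members below 0. The OVE918 libraries lay wholly below those of OVE853 for 11 members, which held for 14.1% of all genes, and wholly above for none (10.2% of all genes). Few single genes passed. Tapbp alone of 16 was called under the FPKM minimum, and it was lower (1.32% of all genes were called, 0.937% lower). Under filterByExpr edgeR called 0 of 35 (0.377% of all genes), with 11 at an unadjusted p under 0.05 (17.7% of all genes), and DESeq2 called 4 (Tapbp, Ifitm3, Trim25 and Dtx3l, all lower, where 5.89% of all genes were called). By edgeR under the FPKM minimum the difference was -0.83 ± 0.20 for Ifitm3 (FDR = 0.07), -0.59 ± 0.16 for Trim25 (FDR = 0.09) and -0.60 ± 0.18 for Ifi35 (FDR = 0.11). Under filterByExpr these FDRs were 0.093, 0.14 and 0.15. Members under the FPKM minimum included Dtx3l at -0.87 ± 0.21 (FDR = 0.096) and Ifih1 at -1.32 ± 0.53 (FDR = 0.23), by edgeR under filterByExpr. The differences between members share the same 7 libraries and are not independent of each other. The lines also differed in lens fiber markers, all 6 of which were above 0 in OVE918 against OVE853 under filterByExpr (median 0.82). Of these, 5 had an unadjusted p under 0.05 by edgeR and 0 were called. The part of fiber cells in the differences between the lines was not tested.

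Interferon-stimulated genes outside the 36 also moved in both directions. Of 64 in the table, 19 passed the FPKM minimum. In OVE853 5 rose (Ifitm1, Ifitm2, Uba7, Slfn9, Stat3) and 2 fell (Ifi27, Tor3a), and in OVE918 Stat3 rose and 4 fell (Ifi27, Adar, Ddx60, Tor3a), where 15.8% and 19% of all genes were called. Ifitm1, of the same family as Ifitm3, went from 5.68, 5.46 and 13.1 CPM in WT to 44.0, 41.1 and 38.7 in OVE853 (2.34 ± 0.43, FDR = 0.0069), and was at 19.0, 7.86, 24.2 and 18.2 in OVE918 (1.09 ± 0.40, FDR = 0.087). Ifi27, a mitochondrial interferon-induced protein, went from 48.9, 50.4 and 64.1 CPM in WT to 31.8, 26.3 and 28.6 in OVE853 and to 20.5, 13.9, 22.4 and 18.2 in OVE918. Its log2 fold changes were -0.91 ± 0.17 (FDR = 0.0059) and -1.54 ± 0.16 (FDR = 7.9e-05), in the order of groups that Ifi35 showed. Stat3 rose by 1.11 ± 0.11 (FDR = 0.00016) and 0.91 ± 0.11 (FDR = 0.00023), and Slfn9 by 1.14 ± 0.34 in OVE853 (FDR = 0.047). Under filterByExpr Ifi44, Ifi47, Phf11d and Slfn5 of this list and Socs1 and Sting1 of the signalling list rose by more than 2-fold in OVE853, and Slfn2 fell in both lines (-1.63 ± 0.35 and -1.43 ± 0.32, FDR = 0.014 and 0.011). In OVE918 against OVE853, 37 of the 48 genes of this list tested under filterByExpr were below 0, with a median of -0.38.

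All 5 lens epithelium markers were expressed, at 103509 to 195353 CPM in sum, most of it from the crystallins Cryaa and Cryab. The paper states that the transgene, which uses an alpha-crystallin promoter, is expressed in epithelial and fiber cells. This sum therefore does not tell epithelium from fibers. Cdh1 (E-cadherin) was called lower in both lines (-0.76 ± 0.19, FDR = 0.021, and -0.61 ± 0.17, FDR = 0.03), and Cdh1, Cryaa and Cryab lay below WT without overlap in OVE853, whereas Pax6 and Foxe3 overlapped WT there. WT replicate 3 stood apart, and it was the highest WT library for 26 of the 36 members, against 44% of all genes. It was also the highest WT library for the Mueller glia gene Rlbp1 (210 CPM, against 29.9 and 35.0). The summed markers of Mueller glia were at 7137 to 8606 CPM in WT and 5126 to 6492 in the transgenic libraries. Of the 5, 4 were called lower in OVE853 and 3 in OVE918 (7.69% and 11% of all genes were). The paper lists Slc1a3, one of these markers, with reduced genes of which it found most elevated in normal lens epithelium. The sum can therefore hold RNA of lens cells and does not measure glia. Those of cornea were at 237 to 1619 CPM in WT and 26.6 to 92.9 in the transgenic libraries, with the 1 gene tested called lower in both lines. Endothelial markers summed to 14.0 to 120 CPM, photoreceptor markers to 7.39 to 41.6, pigmented epithelium markers to 37.7 to 144 and erythrocyte markers to 7.34 to 70.7 over all libraries, and none was called under the FPKM minimum. Under filterByExpr 4 of the 6 endothelial markers were above 0 and 2 below in each line. Of these, 1 was called higher in OVE853 and 3 in OVE918, and 1 pigmented epithelium marker was called lower in both lines (13.6% and 16.9% of all genes were called). Of 10 markers of T, NK and plasmacytoid dendritic cells, Ncr1, Prf1 and Gzmb had no count, and the sum was at most 2.10 CPM in any library. What these cells contribute to the members was not tested.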

How the data were processed

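Lens epithelium of WT (n = 3), OVE853 (n = 3) and OVE918 (n = 4) mice was measured by RNA-seq of paired 150 bp reads, 1 library per pool. Per the methods and labels, adapters were removed by the authors with Cutadapt 5.2, mapping to mm39 used STAR 2.7.11b, and reverse-strand read pairs per gene were counted with featureCounts 2.0.8. The deposited values are raw counts per gene for 50763 genes, without normalization by the authors, and 0 columns lacked a sample. Groups came from the sample titles. No pair of libraries was a duplicate (12 pairs within groups, chi-square per degree of freedom of 12.8 to 129).

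Counts were tested in R 4.3.3 with edgeR 4.0.16 (TMM factors, robust quasi-likelihood fit over all 10 libraries) and Benjamini-Hochberg adjustment within each of 3 comparisons. A call has an FDR of at most 0.05, and SE is the log2 fold change divided by the square root of F. The main test took genes with 2 FPKM or more in at least 5 libraries. FPKM, from library totals for this minimum and from TMM-scaled totals for the levels printed, used exon lengths of GENCODE M39 primary transcripts matched by symbol (43252 genes by symbol, 22 by synonym). Members under this minimum were tested after filterByExpr. Alternatives were DESeq2 1.42.0, upper-quartile factors, other filters and lengths, only the groups compared, no robust estimation, blocks and each library left out. Scripts were tested on simulated data.

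The members were given by name. All 36 were accounted for, with full values for those called or at the extremes of a role, and genes of 5 pathway lists were named when called at 2-fold or more against WT or, in counts of 5 or fewer, after their values were seen. These lists and 10 lists of cell type markers, like the members, were chosen with earlier results of these data known. Promoter windows came from RefSeq (GRCm38.p6). Library totals and the spread between pools limit precision. 1 gene of the signalling list is not reported here.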

Additional observations from a re-analysis of the deposited data

Results flagged for a closer look

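Tapbp was singled out because its change differed between the lines by a test of the difference itself. In OVE918 against OVE853 the log2 fold change was -0.38 (edgeR's quasi-likelihood test, FDR = 0.038), and all 4 OVE918 libraries lay below all 3 OVE853 libraries. Of 35 members with 4 OVE918 libraries to compare, 0 had a library far from the other 3 by Dixon's criterion, where chance gives about 1 in 20. The criterion was not applied to WT or OVE853, so it does not bear on single libraries of those groups.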

How the results depend on the processing

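The number of members called in OVE853 against WT (4, or 1 at 2-fold) was 2 with the number in the library names as a block. At 2-fold it was 3 after filterByExpr and 0 both with lengths of all transcripts and with a replicate block. Leaving out a library gave 0 to 5, or 0 to 1 at 2-fold, with 0 without WT replicate 2, OVE853 replicate 1 or OVE853 replicate 3 and 1 without OVE853 replicate 2. In OVE918 against WT (4, or 2 at 2-fold) it was 9 after filterByExpr and 8 without a filter, and at 2-fold 5 under both and 1 with lengths of all transcripts. Leaving out a library gave 3 to 5, or 1 to 2 at 2-fold, with 1 at 2-fold without WT replicate 3. In OVE918 against OVE853 (1) DESeq2 called 4, a fit of only the groups compared 2, and upper-quartile factors, filterByExpr, no filter and the library name block 0. Leaving out a library gave 0 to 3, with 3 without WT replicate 3 and 0 without WT replicate 2, OVE918 replicate 1, OVE918 replicate 3 or any 1 OVE853 library. The cause was not tested.

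The replicate numbers did not pair the samples, since deviations of libraries with the same number correlated at -0.30 to 0.08. A replicate block, which leaves OVE918 replicate 4 without weight in the comparison, gave 4, 4 and 1 members called. In OVE853 Irf1 and Usp18 were lost and Ifi35 (lower) and Ifitm3 (higher) gained, in OVE918 against WT the same 4 genes were called, and between the lines Ifitm3 took the place of Tapbp. The block's log2 fold changes kept the direction of all 17 called values. Of these 17 values, 9 came from the FPKM minimum and 8 from filterByExpr, the latter with alternatives chosen after the data were seen. Over 306 refits none reversed, 241 passed the threshold and 65 did not. Passing in every refit were 5 values: Gbp7 in both lines, and Tapbp, Ifi35 and Usp18 in OVE918 against WT. In OVE853, H2-K1 ranged from 0.57 to 0.77, Irf1 from 0.42 to 0.56, Irf9 from 0.46 to 0.61 and Nlrc5 from 1.94 to 3.65. H2-K1 in OVE918 missed the threshold without WT replicate 2 alone (FDR = 0.0504). Gbp3 in OVE918 was lost in 12 of 16 refits and in OVE853 in 7. Members under 1 FPKM rest on few counts, and small changes in them were not detectable at this depth.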
